A study of Mus musculus with 8 samples.

Results

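Liver RNA from mice that lack both leptin and SHP (OB-/-/SHP-/-, called the double knockout here) was compared with liver RNA from wild-type mice. The comparison took the 2 double knockout arrays and the 2 wild-type arrays, 4 of the 8 Affymetrix arrays of the study, and every probe set that is not a control, 22626 in all. The other 4 arrays came from mice lacking SHP alone (SHP-/-, 2 arrays) and from mice lacking leptin alone (OB-/-, 2 arrays). All 4 genotypes were on a C57BL background and were fed a standard chow, and the labels give neither age nor sex. The comparison asks what differs from a normal liver when leptin and SHP are missing together.

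Leptin is the hormone of fat tissue that reports fat stores to the brain and restrains feeding. Without it mice overeat, become obese and insulin resistant, and store triglyceride in the liver. SHP, encoded by Nr0b2, is an orphan nuclear receptor that has no DNA-binding domain and represses other nuclear receptors. In liver it is induced by bile acids through FXR, and it restrains bile acid synthesis and takes part in the control of lipid metabolism.

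Values are on the log2 scale, so a difference of 1 is a 2-fold change. Each value in the text is 1 probe set on 1 array. For each gene the brightest of its probe sets was used, by mean over the 8 arrays, which gave 12393 genes, and levels of different genes are not compared because probe sets differ in affinity. A probe set or gene is said to be called, or to have risen or fallen, where limma's adjusted p was below 0.05, and an error given after ± is the standard error (SE) of that difference, from 2 arrays per genotype. Whether the 2 arrays of a genotype are separate mice is not in the labels. The p-values therefore measure only how far these samples spread, which may be technical. Whole liver was measured, so fewer cells of a type and less RNA per cell cannot be told apart.

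Nr0b2, the gene knocked out in SHP-/-, read 8.74 and 8.71 in wild-type, 7.78 and 8.31 in SHP-/-, 8.01 and 8.01 in OB-/-, with 7.11 and 6.66 in the double knockout. The double knockout arrays were the lowest of the 8 but were not at the floor of the scale, and the sources used here do not say whether the probes fall inside the deletion. The double knockout difference from wild-type was -1.84 ± 0.19 (adjusted p = 2.1e-04). Lep, which liver hardly expresses, read between 3.16 and 3.53 on the 8 arrays and so does not check the leptin genotype. Lepr, the leptin receptor, differed by -0.54 ± 0.18 (adjusted p = 0.0751), and its dimmer probe sets by -1.21 (adjusted p = 0.0126) and -0.28 (adjusted p = 0.257). Array medians lay between 5.45 and 5.56, and the correlation across probe sets within a genotype was 0.992 to 0.995. The offset between 3′ and 5′ control probe sets, a sign of RNA or labelling quality, moved with genotype. For Gapdh it was 0.79 and 1.00 in wild-type against 0.03 and 0.11 in the double knockout, and for Actb 1.89 and 1.87 against 0.93 and 0.79. Eif2s3y, a gene of the Y chromosome, read 6.57 to 7.50 on the 8 arrays. The brightest probe set of Kdm5d, also of the Y chromosome, moved with leptin genotype. It read 5.35 and 5.46 in wild-type, 5.23 and 5.37 in SHP-/-, 4.37 and 4.21 in OB-/-, with 4.29 and 4.45 in the double knockout. A dimmer Kdm5d probe set read 3.50 and 3.75 in wild-type and 3.45 and 3.60 in the double knockout. Uty, of the same chromosome, read 4.96 and 4.91 against 5.07 and 5.02. Xist, transcribed from the inactive X of females, read 7.41 on OB-/- replicate 1 and 4.31 to 4.70 on the 7 others (its brightest probe set). OB-/- replicate 1 thus stood apart. The count of probe sets called against OB-/- is also given without it, while gene shares and most list counts against OB-/- include it. The 3′ to 5′ offset and the genotype cannot be told apart, and its part in the results below was not tested.

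The double knockout differed from wild-type at 3350 of 22626 probe sets (14.8%). Of these, 1794 were higher (7.93% of probe sets) and 1556 lower (6.88%), so 53.6% of the calls were higher. With arrays set to equal medians the split was 1536 higher and 2061 lower, or 42.7% higher. Among the called probe sets, 514 rose and 293 fell by at least 2-fold, and 35 rose and 11 fell by at least 8-fold. Counted by gene, 893 of 12393 rose (7.21%) and 968 fell (7.81%), and the median gene differed by 0.00. Counts of list members against wild-type below are to be read beside these 2 shares. The number of called probe sets was 1557 without wild-type replicate 1, 1594 without wild-type replicate 2 and 1749 without double knockout replicate 2. Against OB-/-, which shares the double knockout arrays with this comparison, 320 probe sets were called (124 without OB-/- replicate 1, 118 without OB-/- replicate 2 and 202 without double knockout replicate 2). Counted by gene, 1.07% were higher and 0.678% lower in the double knockout than in OB-/-. Against SHP-/- 1903 probe sets were called (808 if double knockout replicate 2 was left out, and 1073 or 906 if the first or the second SHP-/- array was), and by gene 4.41% were higher and 4.92% lower.

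The 14 largest rises fell into a few kinds of gene. The top 3 were sulfotransferases and 7 were interferon-inducible GTPases. The others were the fatty acid transporter Cd36, the carbohydrate-binding protein Lgals1 (galectin-1), the peroxisomal fatty acid transporter Abcd2 and the water channel Aqp4. The 14 largest falls were led by Slco1a1, Hsd3b5, Igfbp2 and Cyp7b1. All 28 calls held with any 1 array left out. The files used here hold no flags for background. Where a group reads near the floor of the scale, as Lep does, a difference or fold against it is only a lower bound, and its place in the order is not settled. That holds for the wild-type readings of Sult2a2, Sult3a1, Aqp4 and Abcd2 and for the double knockout readings of Slco1a1, Hsd3b5 and Cnmd. Wild-type readings of Sult1e1, Gbp6, Gbp2, Gbp3 and Gbp2b (4.10 to 5.11) were not far above the floor. The same goes for double knockout readings of Nox4, Susd4 and Hspa1b (3.92 to 5.11). The differences of these genes may be lower bounds too. Measured folds were 204 for Sult2a2 and 114 for Slco1a1, and at Irgm1, read well above the floor in both groups, 9.24.

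**Figure D1:**
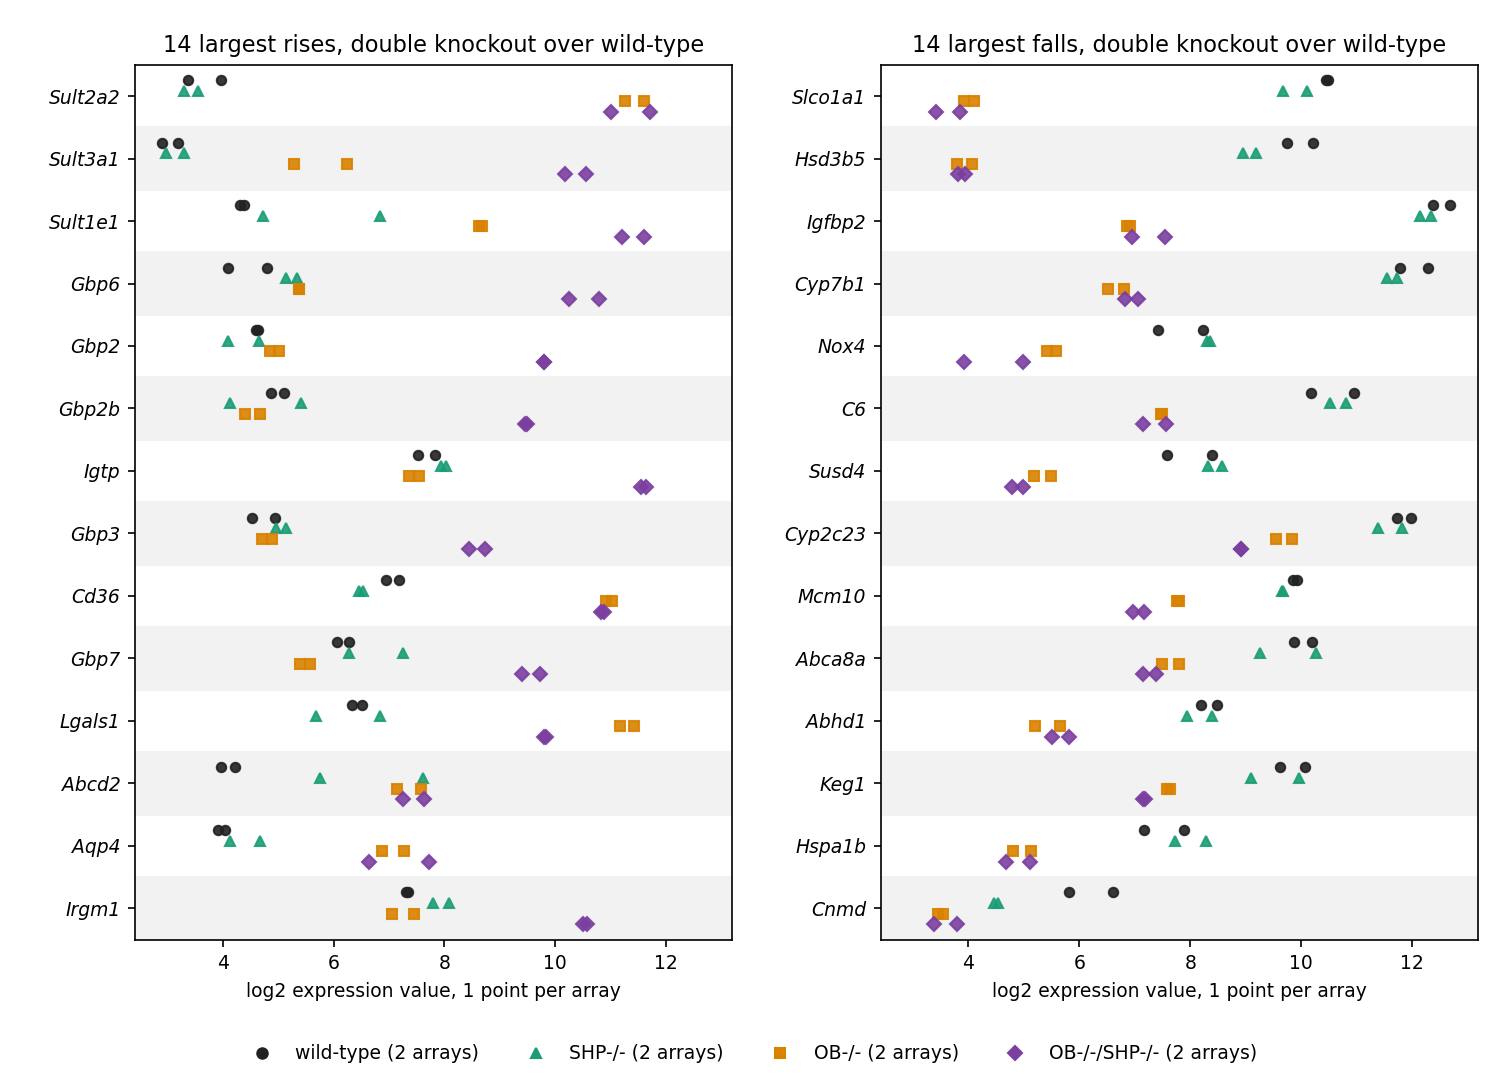
Log2 expression values on each of the 8 arrays for the 14 largest rises (left) and 14 largest falls (right) of the double knockout against wild-type, 1 symbol per array and 2 arrays per genotype. Genes were chosen so that both purple diamonds (double knockout) lie apart from both black circles (wild-type). For the Gbp genes, Igtp and Irgm1 the orange squares (OB-/-) lie near wild-type.

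Interferon-inducible GTPases were the list with the highest share of members that rose. Guanylate-binding proteins (Gbp) and immunity-related GTPases (Irgm1, Igtp and their relatives) are induced by interferons and act on the membranes around intracellular microbes. In the double knockout 11 of 13 measured members rose and 0 fell, with a median difference of 3.21, against 7.21% of all genes higher. The same number rose against OB-/- (11 of 13, median 3.43) and against SHP-/- (11 of 13, median 2.70), and all 3 comparisons share the double knockout arrays. With any 1 array left out, 10 or 11 rose against wild-type and against OB-/-.

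Gbp6 read 4.80 and 4.10 in wild-type and 10.79 and 10.24 in the double knockout, with 5.34 and 5.14 in SHP-/- and 5.37 and 5.37 in OB-/-. Gbp2 read 4.60 and 4.63 in wild-type and 9.80 on both double knockout arrays, with 4.65 and 4.10 in SHP-/- and 4.86 and 5.02 in OB-/-. In both genes the double knockout stood far above all 6 arrays of the 3 other genotypes. The differences from wild-type were 6.06 ± 0.23 for Gbp6 (adjusted p = 1.3e-07) and 5.18 ± 0.18 for Gbp2 (adjusted p = 6.7e-08). Gbp2b rose by 4.48 ± 0.31, Gbp3 by 3.86 ± 0.17 and Gbp7 by 3.38 ± 0.26. Igtp read 7.53 and 7.83 in wild-type, 8.03 and 7.93 in SHP-/-, 7.54 and 7.37 in OB-/-, with 11.55 and 11.63 in the double knockout, a rise of 3.91 ± 0.14 (adjusted p = 9.3e-08). Irgm1 rose by 3.21 ± 0.17 (adjusted p = 1.7e-06). The members that did not pass were Mx1 at -0.00 and Mx2 at 0.43 (adjusted p = 0.995 and 0.122), antiviral GTPases of the dynamin kind. Gbp genes are similar in sequence, and probe sets may take up RNA of more than 1 of them.

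Promoters of the 3 most raised members that the RefSeq table holds are shown because the genes rose together. They span 250 bases before to 50 bases after the start (build GRCm38.p6) and are written 5′ to 3′. Capitals mark matches, on either strand, to an ISRE core (GAAANNGAA), found in sites of interferon regulatory factors. Gbp2 lies at chr3:142620413-142620712 on the plus strand, Gbp2b at chr3:142594597-142594896 on the plus strand and Igtp at chr11:58199306-58199605 on the plus strand.
Gbp2: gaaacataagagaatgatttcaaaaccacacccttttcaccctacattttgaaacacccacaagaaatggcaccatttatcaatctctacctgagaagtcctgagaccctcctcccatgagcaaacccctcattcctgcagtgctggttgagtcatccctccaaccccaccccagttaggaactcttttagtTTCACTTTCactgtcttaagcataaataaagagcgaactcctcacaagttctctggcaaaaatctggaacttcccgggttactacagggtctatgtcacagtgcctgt
Gbp2b: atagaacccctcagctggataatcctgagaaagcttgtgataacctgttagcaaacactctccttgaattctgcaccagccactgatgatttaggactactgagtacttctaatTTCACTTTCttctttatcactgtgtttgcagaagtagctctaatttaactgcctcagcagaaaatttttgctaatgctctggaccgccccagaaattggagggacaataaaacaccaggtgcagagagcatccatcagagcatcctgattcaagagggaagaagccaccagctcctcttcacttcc
Igtp: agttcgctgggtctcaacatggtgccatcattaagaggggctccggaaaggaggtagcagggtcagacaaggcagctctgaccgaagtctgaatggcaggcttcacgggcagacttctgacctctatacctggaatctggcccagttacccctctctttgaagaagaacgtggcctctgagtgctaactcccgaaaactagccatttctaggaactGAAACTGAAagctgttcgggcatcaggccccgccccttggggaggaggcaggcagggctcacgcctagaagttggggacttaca
The ISRE core match begins at base -58 in Gbp2 and at base -136 in Gbp2b, counted from the start. In Igtp it begins at base -34. Of the 8 GTPase genes with a promoter in the table, 7 had an ISRE core match (87.5%). Over all 32851 promoters of the table the share was 8.56%. For the 15 lipid droplet genes with a promoter, 1 had an ISRE core match. A single site of the nuclear receptor NR5A2, an SHP partner (CAAGGTCA), and a core of a direct repeat 1 element, the type bound by PPAR with RXR (GGTCANAGG), were in 1.56% and 1.72% of all promoters and in 0 of either list. A match is only a match of letters in this window.

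Other genes of the interferon response moved in the same direction. Of 23 measured, 14 rose and 0 fell (median 0.70), and 9 rose against OB-/-. Usp18, a protease that removes ISG15 from proteins, read 6.37 and 6.39 in wild-type and 8.48 and 8.49 in the double knockout, with 6.16 and 6.01 in OB-/-. It rose by 2.10 ± 0.16 (adjusted p = 2.5e-05). Zbp1, a sensor of nucleic acids, rose by 2.81 ± 0.26 from 4.53 and 4.65 to 6.88 and 7.91, arrays that differ from each other by more than those of Usp18. Irf7 and Ifit3 rose by 1.68 ± 0.16 and 1.61 ± 0.16. Ifng, interferon gamma itself, read 3.27 and 3.03 in wild-type and 2.94 and 3.06 in the double knockout, near the floor of the scale on all 8 arrays.

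Antigen presentation was raised as well. Of 17 measured genes of MHC and peptide loading 14 rose and 0 fell (median 1.47), and 8 rose without wild-type replicate 1. Among them were the inducible proteasome subunits Psmb8, Psmb9 and Psmb10, which cut proteins into peptides for MHC class I, and Tap1, which carries the peptides into the endoplasmic reticulum. Psmb9 read 7.51 and 7.58 in wild-type, 7.90 and 7.62 in SHP-/-, 7.65 and 7.79 in OB-/-, against 10.15 and 10.23 in the double knockout. The difference from wild-type was 2.65 ± 0.14 (adjusted p = 2.2e-06) and that from OB-/- 2.47 (adjusted p = 4.5e-06). Psmb8 rose by 1.88 ± 0.16, Tap1 by 2.12 ± 0.15 and Psmb10 by 1.47 ± 0.13. Tap1 has 3 dimmer probe sets that were not called, at -0.24, 0.32 and -0.37. H2-Eb1 of MHC class II, singled out after its values were seen, read 7.57 and 7.60 in wild-type and 8.75 and 9.70 in the double knockout, with 8.61 and 7.94 in SHP-/-, a rise of 1.64 ± 0.29 (adjusted p = 0.00445). Its double knockout arrays were farther apart than those of the proteasome subunits.

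**Figure D2:**
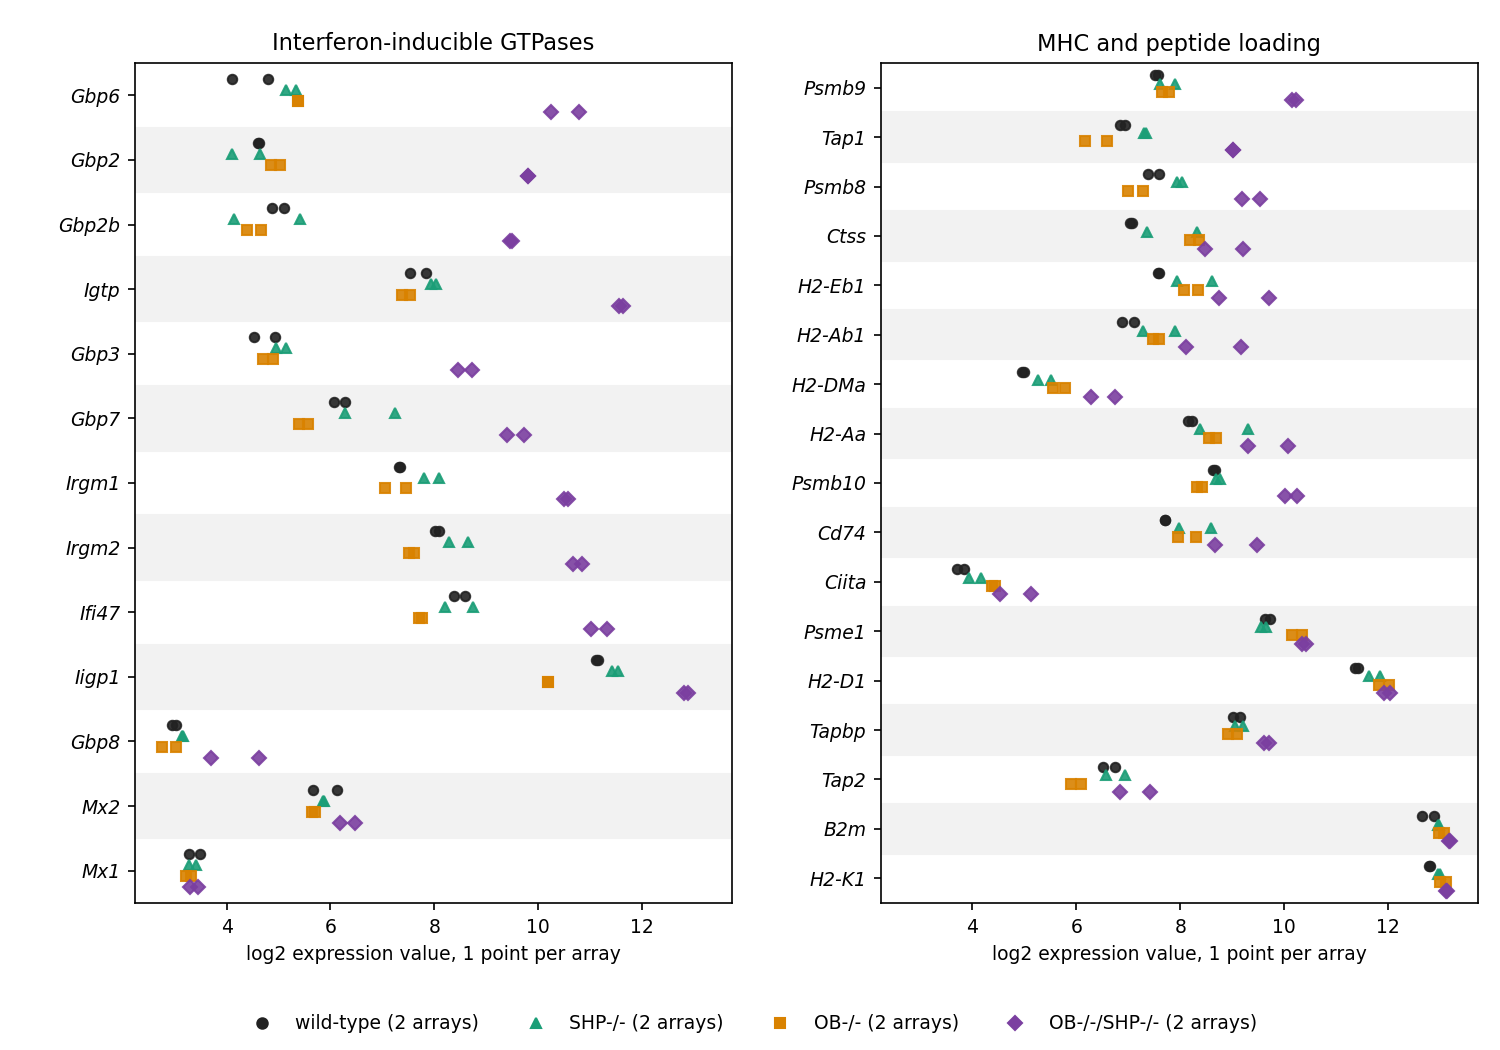
Log2 expression values on each of the 8 arrays for all 13 measured interferon-inducible GTPases (left) and all 17 measured genes of MHC and peptide loading (right), ordered by the double knockout difference from wild-type. The double knockout (purple diamonds) stands above the 6 other arrays for the GTPases down to Gbp8 and for Psmb9, Tap1, Psmb8 and Psmb10, while for Ctss and H2-Eb1 an SHP-/- or OB-/- array lies close to the lower double knockout array.

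Macrophage markers also rose over wild-type, but they were raised in OB-/- as well. Their median difference of OB-/- from wild-type was 0.76. For the GTPases it was -0.22, for the other interferon genes 0.02 and for MHC and peptide loading 0.43. Of 23 macrophage and Kupffer cell markers 14 rose and 0 fell (median 0.94), with 9, 8 and 9 rising without wild-type replicate 1, wild-type replicate 2 and double knockout replicate 2. Their mean level per array was 5.79 to 5.86 in wild-type, 6.15 to 6.55 in SHP-/-, 6.62 to 6.64 in OB-/- and 6.71 to 6.94 in the double knockout. Against OB-/- 1 of the 23 rose (2 without double knockout replicate 2), Mpeg1, a pore-forming protein of phagocytes. Mpeg1 read 7.72 and 7.88 in wild-type, 9.34 and 9.73 in SHP-/-, 8.94 and 8.78 in OB-/-, with 10.36 and 10.75 in the double knockout. It rose by 2.76 ± 0.18 over wild-type (adjusted p = 9.8e-06) and by 1.70 over OB-/- (adjusted p = 6.8e-04). The complement subunits C1qa, C1qb and C1qc, made by macrophages, rose by 2.11 ± 0.23, 2.55 ± 0.31 and 2.05 ± 0.26, and in OB-/- they read 8.14 to 8.64, near the double knockout range of 8.27 to 9.35. Dimmer C1qb probe sets rose less, by 1.23 and 1.75. The part of macrophage RNA in the interferon and antigen lists was not tested.

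Markers of other cells were counted in the same way. Of 18 lymphocyte and NK cell markers 0 rose and 1 fell, Jchain of plasma cells (-1.50 ± 0.28, adjusted p = 0.00592), and their mean was 4.46 to 4.61 in wild-type and 4.41 to 4.63 in the double knockout. Of 11 hepatocyte markers 0 were called by limma (1 at an unadjusted p below 0.05), with means of 12.72 to 12.77 and 12.66 to 12.73. Alb, albumin, read 13.87 and 13.90 in wild-type and 13.98 and 13.99 in the double knockout, close to the top of the scale. Endothelial markers rose at 4 of 16 (2 without wild-type replicate 2 or without double knockout replicate 2), led by the hyaluronan receptor Lyve1 at 2.70 ± 0.29. Stellate cell and matrix genes rose at 8 of 23 (3 without wild-type replicate 2 and 5 without double knockout replicate 2). Among them Lgals1 read 6.34 and 6.52 in wild-type and 9.84 and 9.79 in the double knockout, with 11.17 and 11.42 in OB-/-. The intermediate filament Vim rose by 1.09 ± 0.16 and the basement membrane collagen Col4a2 by 0.80 ± 0.15. A dimmer probe set of the endothelial marker Lyve1 gave a smaller rise, 1.24. Of 7 cholangiocyte markers, Prom1 rose by 1.14 ± 0.19 and the anion exchanger Slc4a2 fell by 1.07, with 2 rising without double knockout replicate 1 and 2 falling without wild-type replicate 1.

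The list with the highest share of members that fell was that of genes male mice express more in liver. These are controlled by the pulses of growth hormone, and many are enzymes and transporters of steroids. Of 12 male-biased genes measured 8 fell and 0 rose, with a median of -1.63, against 7.81% of all genes lower. The count was 8 or 9 with any 1 array left out. Slco1a1, a transporter of bile acids and steroid conjugates, read 10.49 and 10.44 in wild-type, 10.11 and 9.67 in SHP-/-, 4.10 and 3.92 in OB-/-, with 3.85 and 3.42 in the double knockout. Hsd3b5, a steroid reductase, read 10.21 and 9.75 in wild-type and 3.81 and 3.94 in the double knockout. For both genes the leptin-null genotypes lay near the floor of the scale and the leptin-intact genotypes far above it. The measured differences, bounds for that reason, were -6.83 ± 0.19 (adjusted p = 2.4e-08) and -6.11 ± 0.18 (adjusted p = 3.6e-08). A second, dimmer Slco1a1 probe set gave -4.26.

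Female-biased genes went the other way. Of 14 measured 7 rose and 0 fell (median 2.15), and 7 to 9 rose with any 1 array left out. Sult2a2, which sulfates hydroxysteroids and bile acids, read 3.38 and 3.98 in wild-type, 3.31 and 3.56 in SHP-/-, 11.60 and 11.26 in OB-/-, with 11.70 in double knockout replicate 1 and a mean of 11.35 over both double knockout arrays. With wild-type near the floor, the measured rise of 7.67 ± 0.25 (adjusted p = 6.2e-08) is a lower bound. The double knockout did not differ from OB-/- beyond the spread (-0.08 ± 0.25, adjusted p = 0.961). Sult3a1, a sulfotransferase of amines, read 3.20 and 2.91 in wild-type, 2.98 and 3.31 in SHP-/-, 6.24 and 5.29 in OB-/-, with 10.55 and 10.18 in the double knockout. Its level thus had a step at OB-/- and a further step at the double knockout. The latter was 4.61 ± 0.27 over OB-/- (adjusted p = 5.5e-06), and the measured 7.31 ± 0.27 over wild-type (adjusted p = 9.3e-08) is a lower bound, since wild-type read at the floor. Sult1e1, which inactivates estrogens, rose from 4.38 and 4.31 to 11.59 and 11.20, by 7.05 ± 0.48 (adjusted p = 1.4e-05). Its OB-/- arrays read 8.62 and 8.68, and its SHP-/- arrays 4.73 and 6.83 differed from each other. The rise over OB-/- of 2.75 (adjusted p = 0.0201) was lost without either array of wild-type, OB-/- or the double knockout. Its SE is shared by all 4 genotypes and so takes in the gap between the SHP-/- arrays. The call held in a fit to the OB-/- and double knockout arrays alone. It was lost under robust eBayes or a 2-fold minimum. Of the 12 sulfotransferase genes measured, these 3 rose and Sult5a1 fell by 2.14, with 3 falling without double knockout replicate 1.

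**Figure D3:**
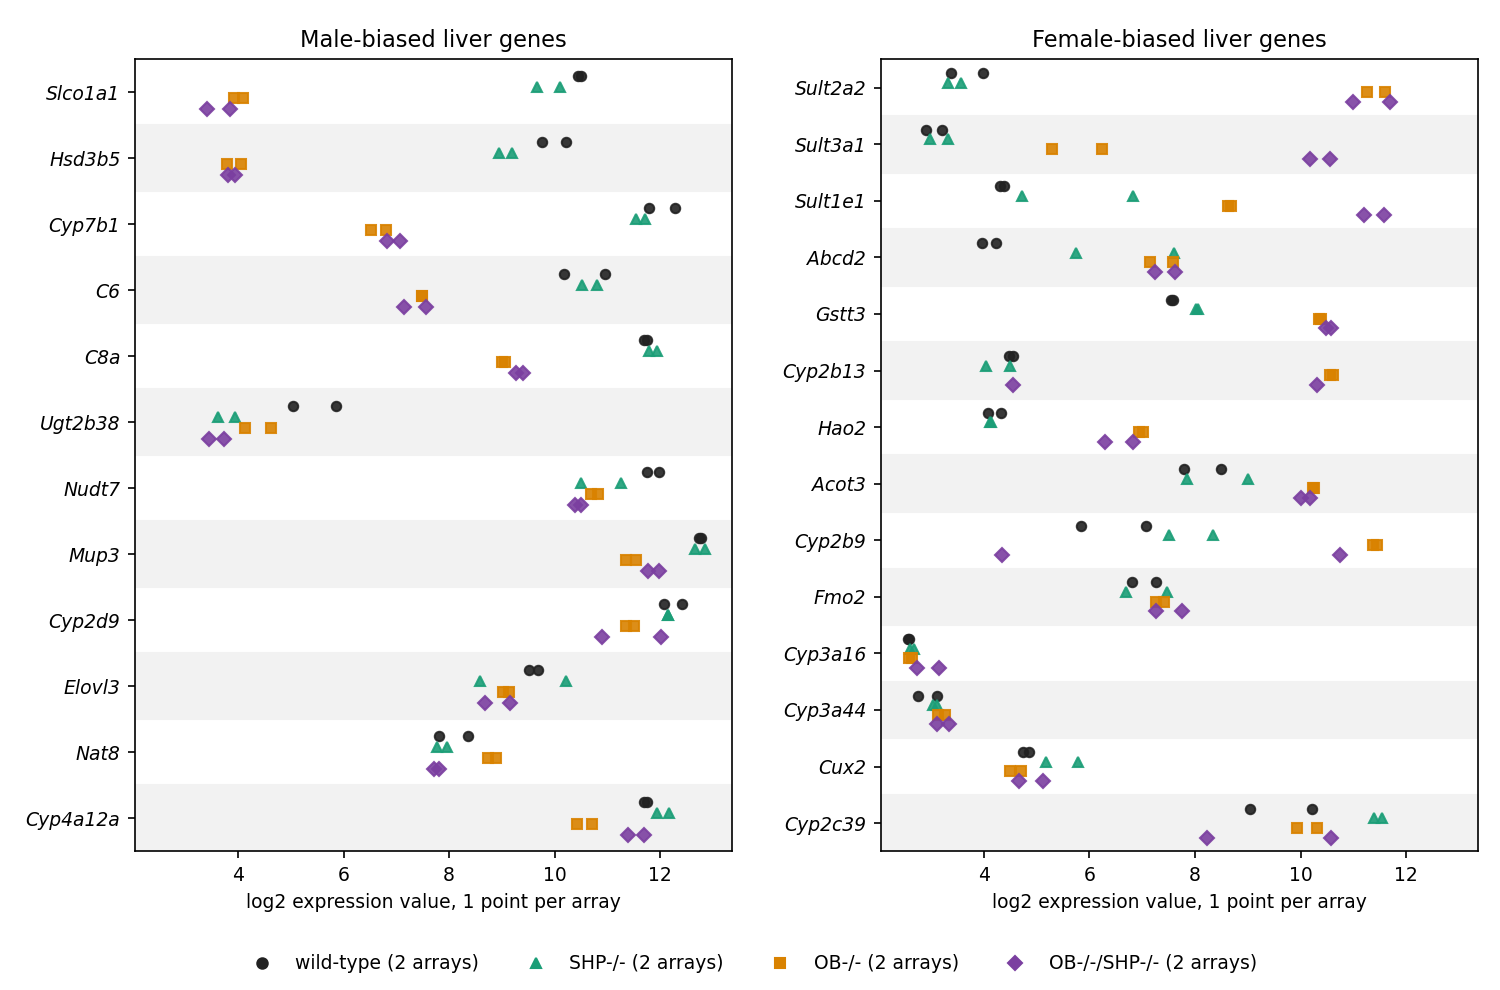
Log2 expression values on each of the 8 arrays for all 12 measured male-biased (left) and all 14 measured female-biased (right) liver genes, ordered by the double knockout difference from wild-type. The double knockout (purple diamonds) lies with OB-/- (orange squares) for Slco1a1, Hsd3b5 and Sult2a2, above it for Sult3a1 and Sult1e1, and its 2 arrays lie far apart for Cyp2b9, Cyp2b13 and Cyp2c39.

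Within the female-biased list the 2 double knockout arrays disagreed at 3 cytochrome P450 genes, named here after their values were seen. Cyp2b9 read 4.34 and 10.74 in the double knockout, 5.84 and 7.08 in wild-type, and 11.44 and 11.37 in OB-/-. Cyp2b13 read 4.55 and 10.31 in the double knockout, 4.47 and 4.56 in wild-type, and 10.61 and 10.56 in OB-/-. So double knockout replicate 1 read as low as wild-type or lower, and replicate 2 near OB-/-. The labels give no sex. Eif2s3y read 7.50 and 6.57 on the 2 double knockout arrays and Xist 4.44 and 4.40, so these sex-linked genes did not separate the pair as the P450 genes did. Neither P450 gene was called against wild-type (adjusted p = 0.684 and 0.159). Cyp2c39 read 8.22 and 10.57. Over all genes the double knockout arrays were more than 2 apart at 4, these 3 and Asic5 (7.53 and 5.28), against 0 genes in wild-type, 1 in OB-/- and 17 in SHP-/-.

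Genes of the growth hormone and IGF axis fell at 5 of 17 and rose at 0 (median -0.38), with 3 falling without wild-type replicate 2 or double knockout replicate 2. Igfbp2, a binding protein that holds IGFs in the circulation, read 12.69 and 12.38 in wild-type, 12.34 and 12.15 in SHP-/-, 6.86 and 6.92 in OB-/-, with 6.95 and 7.54 in the double knockout. It fell by 5.29 (SE 0.19, adjusted p = 9.3e-08). Socs2, a feedback inhibitor of growth hormone signalling, fell by 2.03 (SE 0.25, adjusted p = 5.6e-04) from 7.19 and 7.48 to 5.04 and 5.56. For both genes the double knockout lay within 1 log2 unit of OB-/-.

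Complement and coagulation factors, secreted by hepatocytes, fell at 10 of 26 and rose at 0 (median -0.29). Without wild-type replicate 1 the count was 6. The 4 named by adjusted p, C6, C8a, C8b and C9, encode parts of the terminal attack complex. C6 read 10.95 and 10.17 in wild-type and 7.14 and 7.57 in the double knockout (-3.21 ± 0.24, adjusted p = 2.2e-05), C8a differed by -2.39 ± 0.13 and C9 by -1.45 ± 0.15. C6 and C8a are also in the male-biased list. C8b read 11.31 and 11.11 in wild-type, 8.04 and 7.90 in OB-/- and 8.93 and 9.15 in the double knockout, so it lay between them. It fell by 2.17 below wild-type (SE 0.14, adjusted p = 1.0e-05) and was 1.07 above OB-/- (adjusted p = 0.00391), a call lost without OB-/- replicate 2. Acute phase proteins fell at 2 of 20, near the share over all genes (7.81% lower). Of the 2, Saa3, a serum amyloid, fell by 2.42 (SE 0.32, adjusted p = 8.7e-04). The other, Saa4, lost its call without any 1 of 5 arrays (both of wild-type, both of OB-/- and double knockout replicate 2), and with either SHP-/- array left out 5 of the list fell and 2 rose.

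Genes of fat storage were above wild-type when both leptin and SHP were missing. Of 16 measured lipid droplet genes 8 rose and 0 fell (median 0.49), and 6 or 7 rose with any 1 array left out. Cidec, which drives the fusion of droplets, read 4.29 and 5.08 in wild-type, 4.06 and 4.29 in SHP-/-, 8.85 and 8.85 in OB-/-, with 6.57 and 7.82 in the double knockout. Its relative Cidea read 3.73 and 3.82 in wild-type, 10.07 and 10.27 in OB-/-, and 5.35 and 5.95 in the double knockout. Both stood between wild-type and OB-/-. Cidea read near the floor of the scale in wild-type, so its measured rise over wild-type is a lower bound. Whether Cidea lay nearer to wild-type or to OB-/- is therefore not settled. Cidec rose by 2.51 ± 0.35 over wild-type (adjusted p = 0.00128) and Cidea by 1.88 ± 0.21 (adjusted p = 2.7e-04). Double knockout minus OB-/- was -4.52 ± 0.21 for Cidea (adjusted p = 1.3e-06) and -1.65 ± 0.35 for Cidec, at the threshold (adjusted p = 0.05). Plin4, a droplet coat protein, rose by 2.21 ± 0.17, and Fitm1, which partitions triglyceride into droplets, by 1.77 ± 0.15. Plin4 differed from OB-/- by -0.58 (adjusted p = 0.187).

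Fatty acid uptake showed a large rise at Cd36. This fatty acid transporter read 7.18 and 6.94 in wild-type, 6.46 and 6.54 in SHP-/-, 10.92 and 11.03 in OB-/-, with 10.83 and 10.88 in the double knockout. The rise was 3.79 ± 0.14 (adjusted p = 9.3e-08), with 3.95 and 3.75 from its 2 other probe sets, and the difference from OB-/- was -0.12 (adjusted p = 0.837). Vldlr, a lipoprotein receptor, rose by 1.47 ± 0.17, although 1 of its 3 other probe sets was at -0.10. Of the 14 measured genes of PPAR gamma and fatty acid uptake 6 rose and 1 fell, and 3 rose without wild-type replicate 2 or double knockout replicate 2. The 1 fall, the glycerol channel Aqp9 at -0.64, was lost without either wild-type array or double knockout replicate 2.

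Lipid synthesis was raised at 8 of 16 genes of de novo lipogenesis, with 1 lower (median 0.67) and 6 to 10 higher with any 1 array left out. Me1, malic enzyme, which supplies NADPH, read 9.64 and 9.57 in wild-type, 9.47 and 9.23 in SHP-/-, 12.07 and 12.19 in OB-/-, with 11.43 and 11.68 in the double knockout. It rose by 1.95 ± 0.15 (adjusted p = 2.2e-05), and its dimmer probe set by 0.95. The stearoyl-CoA desaturases Scd1 and Scd2 rose by 1.84 ± 0.19 and 2.33 ± 0.29, and a second Scd1 probe set, lower on the scale, gave 6.45. The fall was at Mlxipl, which encodes the carbohydrate response factor ChREBP (-0.60, adjusted p = 0.0461), and it was lost without wild-type replicate 1 or any array of the double knockout or SHP-/-. Acly, which makes acetyl-CoA from citrate, was singled out after its values were seen. It read 9.02 and 8.92 in wild-type, 9.65 and 9.75 in OB-/-, and 8.78 and 8.60 in the double knockout, a difference of -1.01 from OB-/- (adjusted p = 0.00339) and of -0.28 from wild-type (adjusted p = 0.19).

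Triglyceride and phospholipid synthesis rose at 4 of 13. Mogat1, a monoacylglycerol acyltransferase, read 4.66 and 5.01 in wild-type, 8.68 and 8.50 in OB-/-, and 6.30 and 7.17 in the double knockout. It rose by 1.90 ± 0.25 (adjusted p = 9.5e-04) and differed from OB-/- by -1.85 (adjusted p = 0.00469), a call lost without OB-/- replicate 1. The other 3, Lpin3, Pcyt1a and Lpcat3, rose by 0.51 to 0.62 and each lost its call without wild-type replicate 2, and the list's count was 2 without either double knockout array and 1 without wild-type replicate 2. Genes of glycolysis and of glucose and fructose use rose at 8 of 20 (5, 3 and 5 without wild-type replicate 1, wild-type replicate 2 and double knockout replicate 1). The 1 fall, in the glycogen synthase Gys2, was lost without wild-type replicate 1 or double knockout replicate 2, and 2 fell without wild-type replicate 2 or either SHP-/- array. Khk, which traps fructose, rose by 1.10 ± 0.13 and Pklr, liver pyruvate kinase, by 1.32 ± 0.21.

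Fatty acid oxidation rose at 6 of 23 and fell at 1. The largest was Abcd2, which carries very long chain fatty acids into peroxisomes. It read 3.97 and 4.22 in wild-type, 7.61 and 5.75 in SHP-/-, 7.58 and 7.15 in OB-/-, with 7.25 and 7.63 in the double knockout, a rise of 3.35 ± 0.45 (adjusted p = 9.8e-04). With wild-type near the floor, that rise is a lower bound. The other rises were 0.47 to 1.15 in size, and 1 gene rose without wild-type replicate 2 or double knockout replicate 2 and 2 without wild-type replicate 1. The fall, at -0.69 in the coactivator Ppargc1a, was lost without any 1 of those 3 arrays. Of 28 subunits of the respiratory chain and ATP synthase 0 were called by limma (5 at an unadjusted p below 0.05), and the median was 0.04. Cox4i1 read 12.59 and 12.52 in wild-type and 12.47 and 12.39 in the double knockout. Of 7 ketogenesis and hepatokine genes, Fetub, a liver-secreted protein, fell by 1.04 (SE 0.13, adjusted p = 7.6e-04).

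In cholesterol synthesis and uptake 5 of 16 rose and 2 fell. Nsdhl and Fdps, enzymes of sterol and isoprenoid synthesis, rose by 1.93 ± 0.19 and 1.70 ± 0.18. Nsdhl read 8.32 and 7.87 in wild-type, 8.68 and 8.67 in SHP-/-, 9.56 and 9.78 in OB-/-, with 9.79 and 10.25 in the double knockout, so all 3 mutant genotypes lay above wild-type. Stard4, a sterol carrier, fell by 1.57 (SE 0.20, adjusted p = 6.9e-04). The count of rises was 3 without wild-type replicate 2 or double knockout replicate 2, and that of falls 1 without any 1 of the 4 arrays compared. Among lipoprotein genes 3 of 16 rose and 1 fell, beside 7.21% and 7.81% of all genes. Pltp, the phospholipid transfer protein, read 7.14 and 6.90 in wild-type, 10.94 and 10.90 in OB-/-, and 9.79 and 10.08 in the double knockout, a rise of 2.92 ± 0.15 (adjusted p = 1.7e-06). Apoa4 rose by 1.23 ± 0.16. The fall, at -0.55 in Apom, was lost without wild-type replicate 1 or double knockout replicate 2.

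Bile acid synthesis is the pathway that SHP is best known to restrain. Of 15 genes measured 3 rose and 1 fell (median 0.05), beside 7.21% and 7.81% of all genes. Cyp7a1, the rate-limiting enzyme and named here for that role after its values were seen, read 10.02 and 9.15 in wild-type, 10.43 and 10.38 in SHP-/-, 9.88 and 9.84 in OB-/-, with 9.82 and 8.85 in the double knockout. The groups overlapped, and the difference was -0.25 ± 0.31 (adjusted p = 0.654). Cyp8b1, which sets the share of cholic acid, differed by -0.34 ± 0.17 (adjusted p = 0.229). Cyp7b1, of the alternative pathway, read 12.28 and 11.79 in wild-type, 11.54 and 11.72 in SHP-/-, 6.51 and 6.81 in OB-/-, with 7.06 and 6.82 in the double knockout. It fell by 5.10 (SE 0.19, adjusted p = 9.3e-08). Akr1d1, the reductase that shapes the sterol ring of bile acids, rose by 1.93 ± 0.17 from 9.03 and 8.77 to 10.87 and 10.80. Cyp39a1, a hydroxylase of oxysterols, read 6.71 and 6.84 in wild-type, 7.13 and 6.79 in SHP-/-, 6.98 and 6.80 in OB-/-, with 8.22 and 7.83 in the double knockout. It rose by 1.25 ± 0.17 over wild-type (adjusted p = 0.00125), and the rise of 1.14 over OB-/- (adjusted p = 0.00866) was lost without either OB-/- array or double knockout replicate 1.

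Transporters of bile acids, sterols and anions rose at 2 and fell at 4 of 14. Besides Slco1a1, Abcb1a, a drug efflux pump, rose by 1.89 ± 0.24 from 4.27 and 4.22 to 5.83 and 6.43. The other falls were 0.55 to 0.87 in size, and 1 fell without wild-type replicate 1 or double knockout replicate 1 and 2 without double knockout replicate 2. The second rise, at 0.50 in the bile acid importer Slc10a1, was lost without either wild-type array or double knockout replicate 2. Of 14 nuclear receptors and related factors 4 fell and 1 rose, with 2 falling without wild-type replicate 1. Besides Nr0b2, Foxa2, a factor of hepatocyte identity, fell by 1.08 (SE 0.16, adjusted p = 0.00186). The 1 rise, at 0.65 in Nr1i2, the xenobiotic receptor PXR, was lost without either wild-type array or double knockout replicate 2.

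Drug-metabolising cytochromes P450 rose at 4 and fell at 3 of 27, beside 7.21% and 7.81% of all genes. Cyp2f2 read 12.72 and 12.46 in wild-type, 11.90 and 11.88 in SHP-/-, 12.71 and 12.63 in OB-/-, with 10.78 and 10.43 in the double knockout. Its OB-/- arrays lay with wild-type and its double knockout arrays were the lowest of the 8, at -1.99 ± 0.16 from wild-type (adjusted p = 2.8e-05) and -2.07 from OB-/- (adjusted p = 3.8e-05). Cyp2b10, a target of the xenobiotic receptor CAR, read 5.52 and 5.67 in wild-type, 8.33 and 8.50 in OB-/-, and 6.40 and 6.87 in the double knockout. It rose by 1.04 ± 0.18 over wild-type (adjusted p = 0.00453) and was -1.77 from OB-/- (adjusted p = 6.1e-04). Cyp2c54 and Cyp1a2 fell by 1.55 and 1.22. The count of rises was 2 without either wild-type array and 1 without double knockout replicate 2. Glutathione transferases and NRF2 targets rose at 10 and fell at 5 of 23. Gstm3 rose by 2.94 ± 0.17 and Gstt3 by 2.98 ± 0.12, and of the falls Gstp1, named after its values were seen, read 13.32 and 13.30 in wild-type and 12.19 and 12.13 in the double knockout (-1.15 ± 0.14, adjusted p = 5.2e-04). The count of falls was 1 without wild-type replicate 1 and 2 without wild-type replicate 2 or double knockout replicate 2.

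The unfolded protein response was lower. Of 21 genes, most of them chaperones of the endoplasmic reticulum, 11 fell and 1 rose (median -0.52), against 7.81% of all genes lower. Hspa5, the chaperone BiP, read 11.56 and 11.61 in wild-type, 11.45 and 11.71 in SHP-/-, 10.93 and 10.90 in OB-/-, with 10.69 and 10.59 in the double knockout. It fell by 0.95 (SE 0.14, adjusted p = 0.00153), while its other probe set, at -0.54, was not called (adjusted p = 0.0561). Sdf2l1 fell by 1.48 and Creld2 by 0.93. The count was 3 without wild-type replicate 1 and 7 without wild-type replicate 2 or double knockout replicate 2, so it depends on these arrays. The 1 rise, Edem1, which sends misfolded proteins to degradation, was 0.78 ± 0.13, and its other probe set was at 0.01. Outside this list, Hspa1b, the heat-inducible cytosolic chaperone, fell by 2.64 (SE 0.26, adjusted p = 1.5e-04).

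Sulfur amino acid metabolism held genes that differed from OB-/-. Of 18 measured 6 rose and 3 fell, with 3 rising without wild-type replicate 2 and 1 falling without wild-type replicate 1. Csad, the decarboxylase of taurine synthesis, read 9.62 and 9.28 in wild-type, 11.46 and 11.39 in SHP-/-, 9.10 and 9.16 in OB-/-, with 11.30 and 10.80 in the double knockout. Both SHP-null genotypes lay above both SHP-intact ones. Csad rose by 1.60 ± 0.18 over wild-type (adjusted p = 3.5e-04) and by 1.92 over OB-/- (adjusted p = 2.6e-04). Dmgdh, of choline breakdown, rose by 1.20 ± 0.14. Cbs, which commits homocysteine to cysteine, fell by 0.99 (SE 0.15, adjusted p = 0.00179).

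In insulin signalling and gluconeogenesis 4 of 18 fell and 2 rose, with 1 falling without wild-type replicate 1 or double knockout replicate 2. Irs1, an insulin receptor substrate, read 8.79 and 8.45 in wild-type, 8.26 and 8.59 in SHP-/-, 7.46 and 7.22 in OB-/-, with 7.40 and 7.23 in the double knockout. It fell by 1.31 (SE 0.17, adjusted p = 8.9e-04). Irs2 read 7.60 and 7.58 in wild-type, 5.80 and 5.79 in OB-/-, and 6.99 and 6.70 in the double knockout, between both. Its fall of 0.74 below wild-type (adjusted p = 0.0299) was lost without either wild-type array or double knockout replicate 2. The 2 rises, in Insr and Pik3r1 of the insulin signalling chain, were 0.58 and 0.84, and both were lost without wild-type replicate 1 or without wild-type replicate 2, and that of Pik3r1 also without double knockout replicate 1. Pck1, the gluconeogenic enzyme named for its role after its values were seen, read 12.29 and 12.14 in wild-type and 12.09 and 11.86 in the double knockout (adjusted p = 0.309).

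Cell cycle genes rose at 10 of 26 and fell at 1 (median 0.37), with 4, 6 and 5 rising without wild-type replicate 1, wild-type replicate 2 and double knockout replicate 2. Cdkn1a, the cell cycle inhibitor p21, read 6.80 and 7.09 in wild-type, 8.73 and 8.40 in OB-/-, and 9.44 and 9.09 in the double knockout, a rise of 2.32 ± 0.30 (adjusted p = 7.8e-04). Cdk1 and cyclin Ccnb2, of mitosis, rose by 1.66 ± 0.16 and 1.57 ± 0.16 from readings near 4, so an inhibitor and drivers of division rose together. The 1 fall, at -0.75 in the helicase subunit Mcm7, was lost without wild-type replicate 1 or double knockout replicate 2. Outside this list, Mcm10, a replication factor among the largest falls, read 9.93 and 9.85 in wild-type and 6.97 and 7.16 in the double knockout, while its dimmer second probe set differed by -0.40 (adjusted p = 0.148).

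Smaller lists were called at few members, and over all genes 7.21% were higher and 7.81% lower. Of iron and copper genes 2 of 17 rose and 1 fell. Hamp2, a relative of the iron hormone hepcidin, rose by 2.87 ± 0.18 from 9.69 and 9.59 to 12.51 and 12.52, with a dimmer second probe set at 0.27. The other 2 calls of that list, Id1 higher and Tfrc lower, were lost without wild-type replicate 2 or double knockout replicate 2, and Tfrc also without wild-type replicate 1, while 2 genes fell without double knockout replicate 1. Of 12 imprinted genes 3 fell (1 without wild-type replicate 2), Meg3, Rian and Peg3. Of 17 circadian genes 2 were called, Per2 higher (lost without wild-type replicate 1 or double knockout replicate 2) and Nr1d1 lower (lost without either wild-type array or double knockout replicate 1). Without an OB-/- array 2 of them rose, and without an SHP-/- array 3 fell. Amino acid catabolism was called at 4 of 25, 2 in each direction, near the shares over all genes. Each of the 4 was lost without wild-type replicate 2. Both rises were also lost without wild-type replicate 1 or double knockout replicate 2, and 1 of the falls without the latter. Genes of the amino acid stress response rose at 3 and fell at 2 of 21, with 0 falling without wild-type replicate 1 and 1 without wild-type replicate 2, double knockout replicate 2 or either OB-/- array. Of 9 genes of leptin and thyroid hormone signalling 2 fell, Dio1, described further on, and Socs3, which was lost without wild-type replicate 2 or either double knockout array. Of immediate-early genes 1 of 21 rose, Egr3, and its call was lost without wild-type replicate 1 or double knockout replicate 2, while 4 rose and 2 fell without an SHP-/- array. Among 7 red blood cell markers Car2, carbonic anhydrase, rose by 0.91 ± 0.16 and Alas2, of haem synthesis, fell by 1.13. Of 13 markers of fat and muscle, 2 rose and 3 fell, with 0 rising without wild-type replicate 1 and 1 without wild-type replicate 2 or double knockout replicate 2, and 0 falling without wild-type replicate 2 and 1 without wild-type replicate 1 or double knockout replicate 1.

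**Figure D4:**
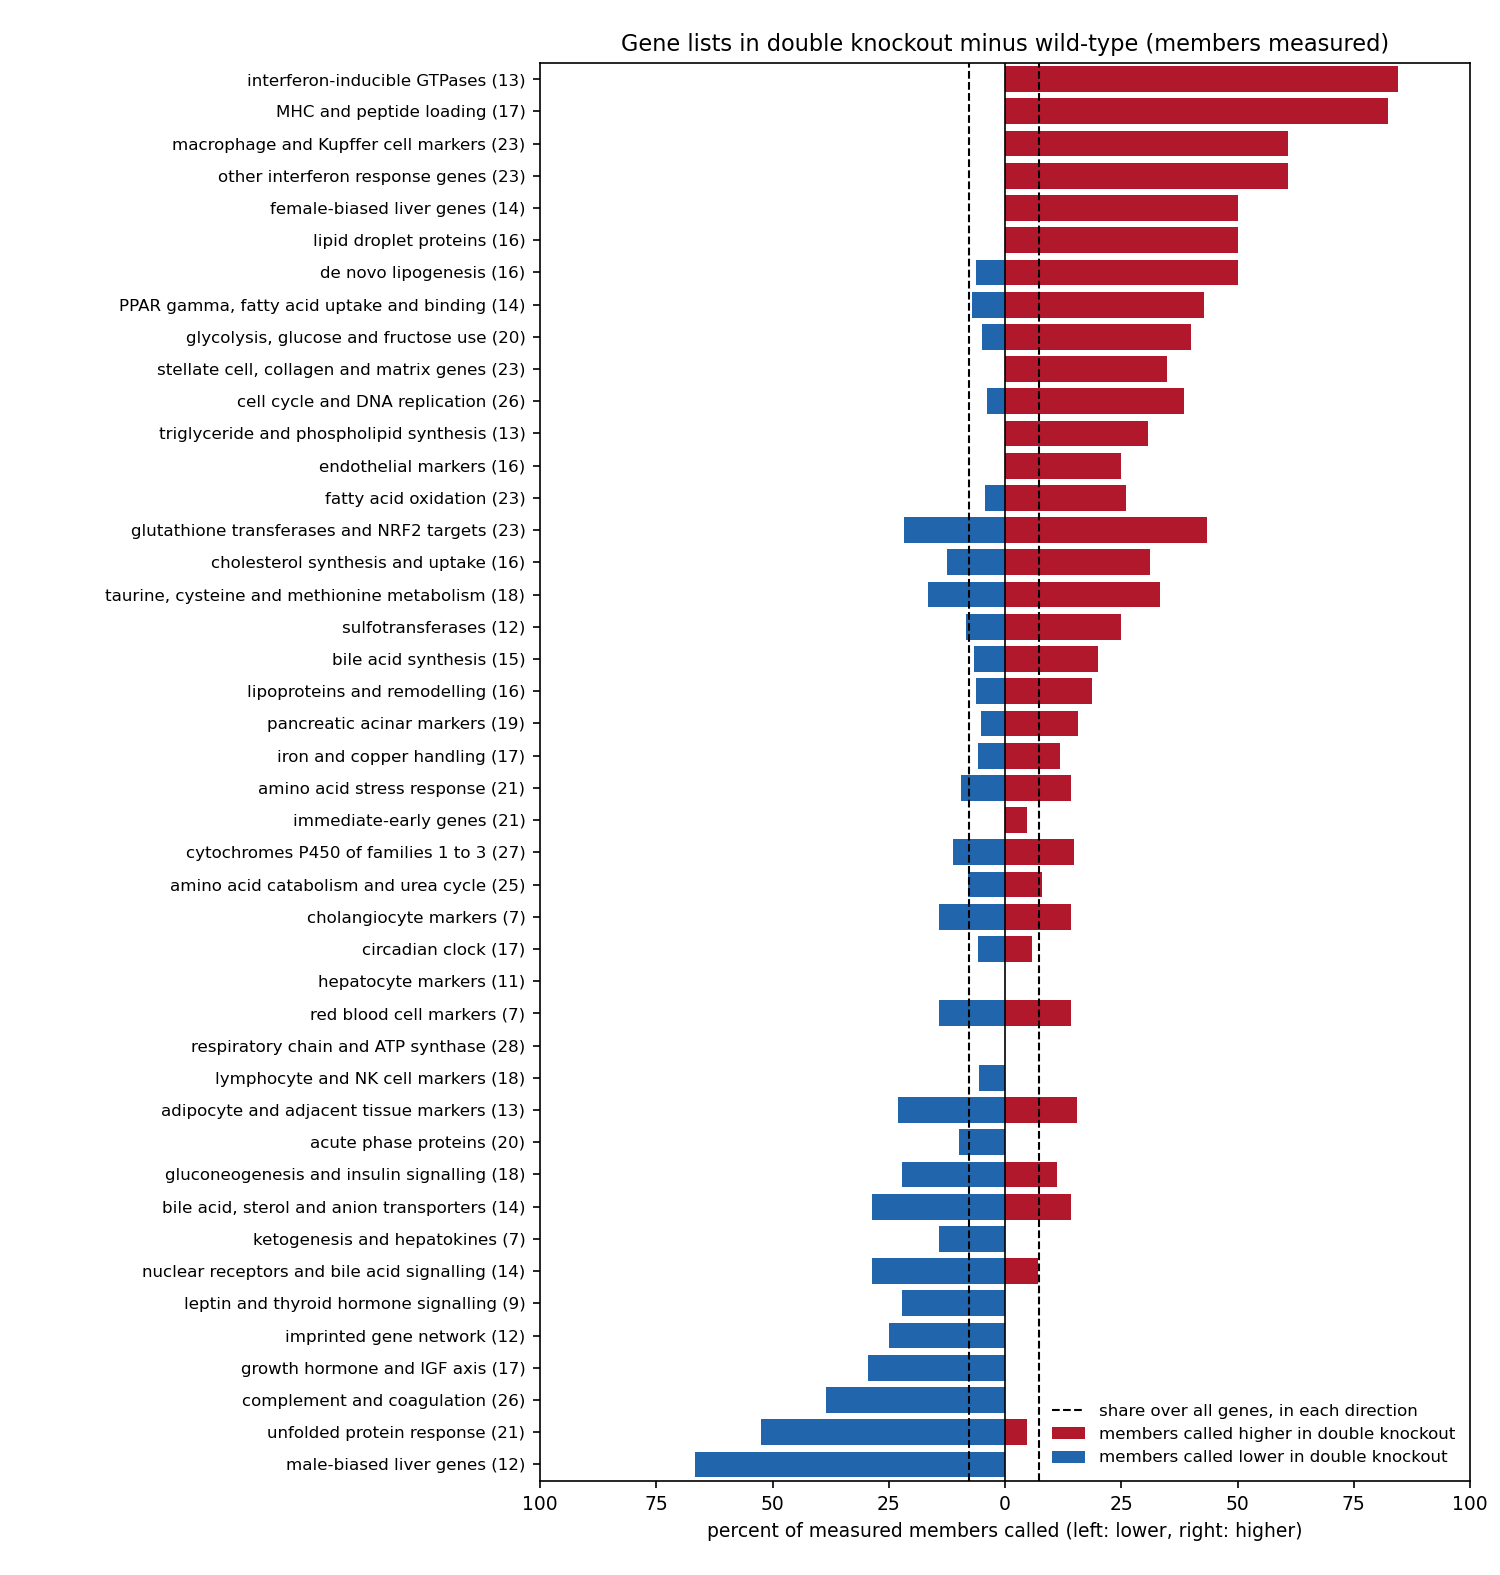
Percent of the measured members of each of the 44 gene lists that were called higher (red, right) or lower (blue, left) in the double knockout than in wild-type, with the number measured in parentheses. Dashed lines mark the shares over all genes, 7.21% higher and 7.81% lower. Interferon-inducible GTPases and MHC and peptide loading reach farthest to the right, and male-biased liver genes and the unfolded protein response farthest to the left.

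Genes called against both wild-type and OB-/- show where the double knockout was not simply a copy of OB-/-. Among genes higher than wild-type, the Gbp genes, Igtp and Sult3a1 were higher still than OB-/-, as described above. Others were higher than wild-type but lower than OB-/-. The 6 of these farthest from OB-/- under the naming rules were Cidea, Mogat1 and Cyp2b10 above, Zg16, Wfdc2 and Lgals1. For Lgals1 the call against OB-/- (-1.48, adjusted p = 0.0317) was lost without either array of wild-type, OB-/- or the double knockout. It held in a fit to the OB-/- and double knockout arrays alone, and was lost against a 2-fold minimum. The SHP-/- arrays, which enter its shared SE, read 6.84 and 5.69. Zg16 is a protein of pancreatic secretory granules. It read 5.26 and 5.21 in wild-type, 8.96 and 8.95 in OB-/-, and 5.79 and 6.25 in the double knockout, a rise of 0.79 ± 0.16 over wild-type (adjusted p = 0.00844) that was lost without wild-type replicate 2 or double knockout replicate 2. Against OB-/- it was -2.94 (adjusted p = 3.0e-06). The dimmer probe sets of Zg16 differed from wild-type by -0.35 and 0.15 and were not called. Of 19 pancreatic acinar markers, a tissue that lies beside the liver, 3 rose and 1 fell against wild-type (1 rose without either wild-type array or double knockout replicate 2), and 5 were lower than in OB-/-. Over all genes 7.21% rose and 7.81% fell against wild-type, and 0.678% were lower than in OB-/-. The mean of the acinar markers was 4.34 to 4.35 in wild-type, 4.27 to 4.32 in SHP-/-, 5.41 to 5.74 in OB-/- and 4.52 to 4.67 in the double knockout. The part of other tissue in these values was not tested. Wfdc2, a secreted protease inhibitor, read 6.04 and 6.15 in wild-type, 9.01 and 9.03 in OB-/-, and 7.44 and 7.57 in the double knockout, 1.41 ± 0.14 above wild-type (adjusted p = 1.5e-04).

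Some genes were below both wild-type and OB-/-. Serpina12, which encodes the serpin vaspin, read 7.27 and 7.49 in wild-type, 5.22 and 5.51 in SHP-/-, 7.03 and 7.31 in OB-/-, with 5.09 and 4.95 in the double knockout. Dio1, the deiodinase that activates thyroid hormone, read 9.90 and 10.14 in wild-type, 8.17 and 8.03 in SHP-/-, 9.81 and 10.14 in OB-/-, with 8.60 and 7.41 in the double knockout. In both genes the SHP-/- and double knockout arrays lay together below the others. Serpina12 fell by 2.36 (SE 0.16, adjusted p = 1.3e-05) and Dio1 by 2.02 (SE 0.30, adjusted p = 0.00194) against wild-type. Against OB-/- they were -2.15 (adjusted p = 3.7e-05) and -1.97 (adjusted p = 0.00915), and the latter was lost without either OB-/- array. A dim second Serpina12 probe set differed from wild-type by -0.01. Bco2, a carotenoid-cleaving enzyme, fell by 1.91 (SE 0.27, adjusted p = 0.00153), and its difference from OB-/- (-1.64, adjusted p = 0.0149) was lost without OB-/- replicate 2 or double knockout replicate 1. Adi1, of methionine salvage, and Sucnr1, the succinate receptor, were above wild-type in OB-/- and below it in the double knockout. Sucnr1 read 6.87 and 6.65 in wild-type, 7.57 and 7.59 in OB-/-, and 6.10 and 6.19 in the double knockout. Their falls against wild-type, 1.18 and 0.61, were lost without wild-type replicate 1, and that of Adi1 also without double knockout replicate 2, while 1 of the 2 other Adi1 probe sets was at 0.19.

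A last group fell in the double knockout but less than in OB-/-. Meg3, an imprinted long noncoding RNA, read 9.47 and 9.41 in wild-type, 10.90 on both SHP-/- arrays, 6.05 and 6.32 in OB-/-, and 8.09 and 7.97 in the double knockout. The 4 genotypes thus had 4 separate levels, with wild-type between SHP-/- and the double knockout. Meg3 fell by 1.41 below wild-type (SE 0.14, adjusted p = 1.5e-04) and was 1.84 above OB-/- (adjusted p = 3.8e-05), and its 4 other probe sets differed from wild-type by -1.03 to 0.00. Gdpd3, a lysophospholipase D, and Ang, angiogenin, fell by 1.73 (SE 0.29, adjusted p = 0.00357) and by 1.53 (SE 0.19, adjusted p = 6.0e-04). Ang read 10.24 and 10.25 in wild-type, 7.72 and 7.29 in OB-/-, and 8.71 on 1 double knockout array and 8.72 on the other. The differences from OB-/- were 1.21 for Ang (adjusted p = 0.00961) and 1.67 for Gdpd3 (adjusted p = 0.0201). Both were lost without OB-/- replicate 2 or double knockout replicate 2, and that of Gdpd3 also without OB-/- replicate 1.

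**Figure D5:**
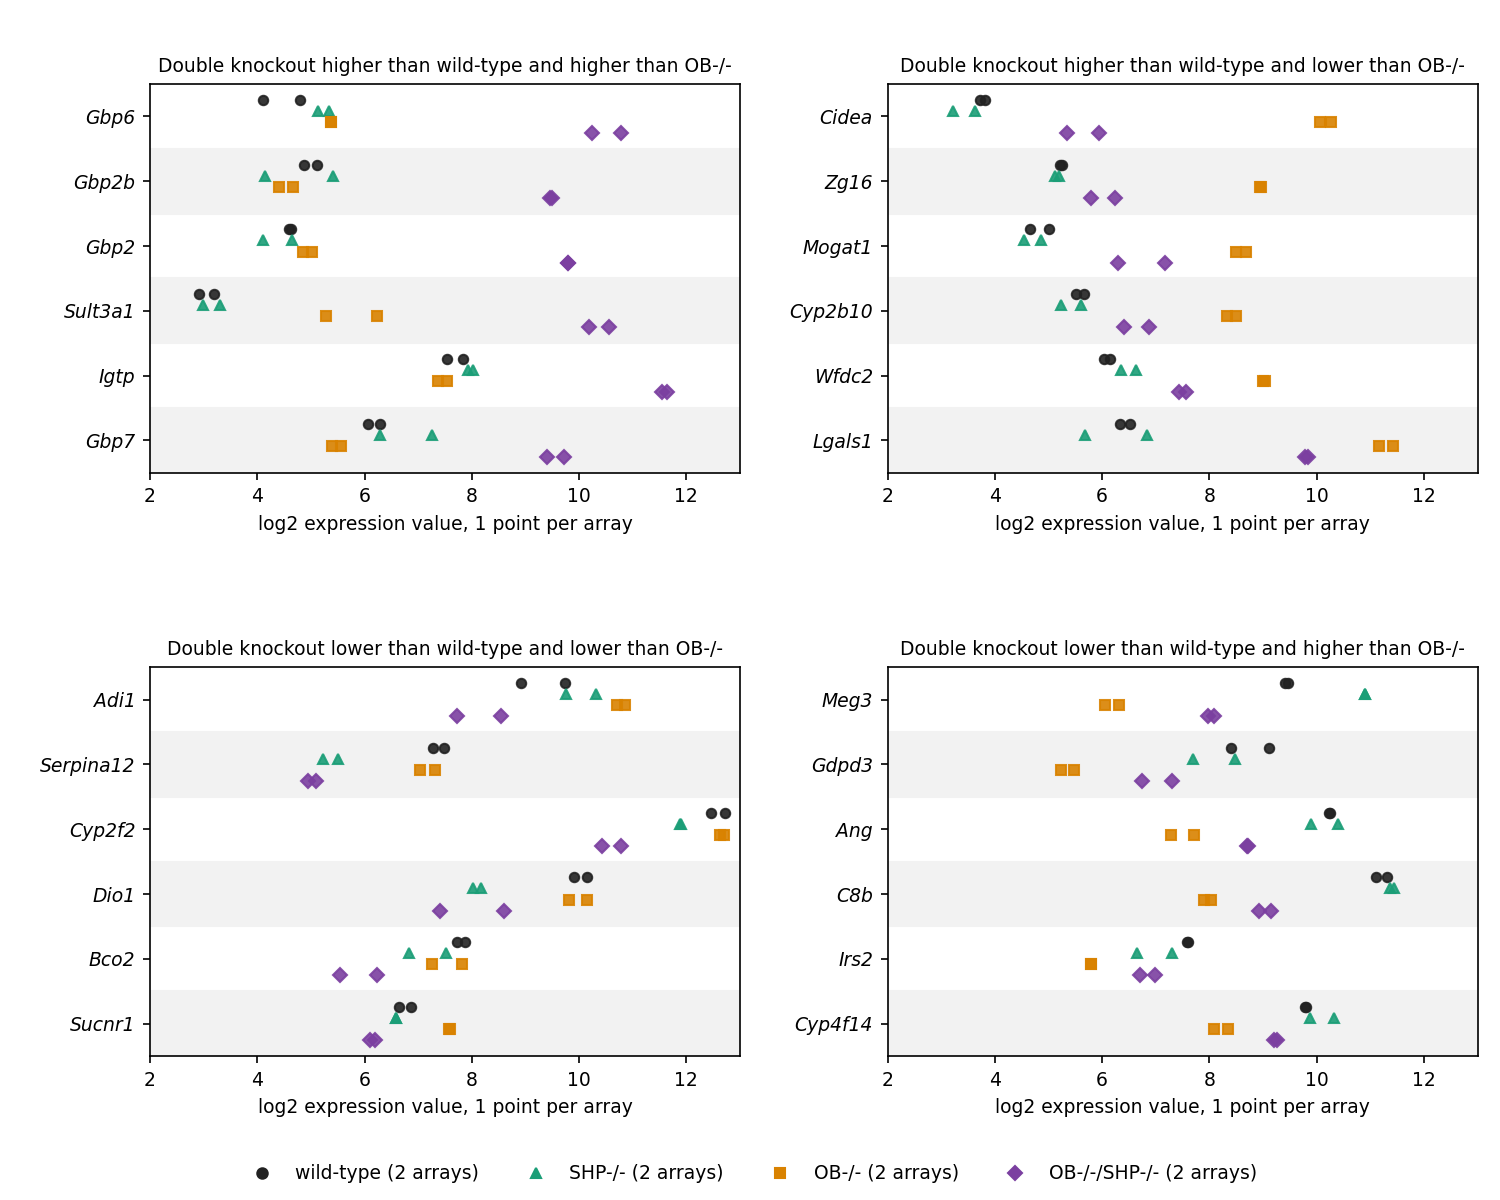
Log2 expression values on each of the 8 arrays for genes called both against wild-type and against OB-/-, up to 6 in each of 4 classes by direction, ordered by the size of the double knockout difference from OB-/-. For the Gbp genes the double knockout (purple diamonds) stands alone, for Cidea and Meg3 it lies between wild-type and OB-/-, and for Serpina12, Cyp2f2 and Dio1 OB-/- (orange squares) lies with wild-type.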

How the data were processed

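Liver RNA of 4 mouse genotypes was measured on 8 Affymetrix arrays, 2 per genotype, with genotype and replicate taken from the titles. The deposited log2 values, 1 per probe set and array, were made by the authors in R (version 2.15.0, per the submitters' processing notes). The sources used here do not give the background correction, the summarisation or the log base, and base 2 was read from the range of the values (2.20 to 14.19). Of 22690 probe sets 64 controls were left out, and 20380 of the rest named 1 gene, 691 several and 1555 none. One linear model, with a mean for each genotype, was fitted to the 22626 probe sets and 8 arrays with limma 3.58.1 in R 4.3.3 (lmFit and eBayes without trend, 4 residual and 6.45 prior degrees of freedom). Tests were two-sided with Benjamini-Hochberg adjustment over all probe sets, and the fitting was tested on simulated data. The median SE of a difference was 0.15, and the number of arrays limits the precision.

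Named were Nr0b2, Lep and Lepr, the 14 largest rises and falls with no overlap between arrays, a higher group mean of at least 5.50 (the median of all values) and a symbol other than a predicted or clone name, up to 4 members of each list by adjusted p (up to 2 by level for a list with none called), and the 6 genes farthest from OB-/- in each of 4 classes of genes called against both wild-type and OB-/-, with the same conditions on overlap, level and symbol. Other genes, such as Ifng, Xist, Eif2s3y, Kdm5d, Uty, Mx1, Gys2, Ppargc1a, Apom, Mcm7, Aqp9, Mlxipl and Slc10a1, were named after their values were seen. The 44 gene lists, these rules and the comparison itself were chosen with earlier results of these data known. Promoters came from RefSeq, build GRCm38.p6, and 1 of the motifs searched is not reported here. The alternatives were other normalisations, a filter at the 40th percentile of probe sets (4.83), other moderation, other ways of choosing probe sets, a 2-fold minimum change, fewer arrays and a replicate block.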

Additional observations from a re-analysis of the deposited data

How the results depend on the processing

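The count of 3350 probe sets called in double knockout minus wild-type (1794 higher, 1556 lower) was 1965 (942 and 1023) with 1 probe set per gene and 1794 (938 and 856) with probe sets averaged by gene, both of which test fewer features, and 129 (84 and 45) against a minimum change of 2-fold. With 1 array left out it lay between 1557 and 3300 (759 to 1792 higher, 561 to 1508 lower). Double knockout minus OB-/- had 320 calls, 50 against a 2-fold minimum, 123 without OB-/- replicate 1 and SHP-/- replicate 1, and 118 to 338 with 1 array left out. Double knockout minus SHP-/- had 1903 calls, 1154 with probe sets averaged by gene, 99 against a 2-fold minimum, 837 in a fit to the 4 arrays compared, 766 without OB-/- replicate 1 and SHP-/- replicate 1, and 808 to 1828 with 1 array left out. A group cut to 1 array is assumed to vary like the others. No call of a named gene against wild-type or OB-/- changed direction under the alternatives run. The direction of other probe sets, and of calls against SHP-/-, was not checked one by one. Of 160 named genes called against wild-type, 112 held with any 1 array left out. Replicate numbers do not pair the arrays: deviations correlated at 0.093 between wild-type and double knockout and between -0.1 and 0.209 over all pairs of genotypes. With the replicate number as a block the calls were 3452, 336 and 1994.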
